A study of Rattus norvegicus with 4 samples.

Results

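The 10 genes described here are components of the Hippo pathway: the coactivators Yap1 and Wwtr1 (which encodes TAZ), the DNA-binding factors Tead1 and Tead2, the kinases Lats1 and Lats2, and the regulators Amotl1, Amotl2, Nf2 and Ajuba. They were chosen by gene name, and each matched 1 of the 18755 genes in the deposited tables. All 10 had a level of at least 1 FPKM (the read count scaled by gene model length and by the library's summed count) in at least 1 library, as did 12394 genes in all. The cells were primary cultures of cerebral cortex taken at embryonic day 16 from SD rats. They were kept for 24 h in Neurobasal medium with 2% B27 and 1% PS on N-SFMA, L-SFMA, NL-SFMA or plain SFMA hydrogel, at 100000 cells per well in 5 wells per hydrogel. The sources used here do not say whether wells or embryos were pooled, and they do not spell out the letters N and L. Each hydrogel has 1 library, so no difference below has a replicate check or a p-value.

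In the Hippo pathway the kinases Stk3 and Stk4 activate Lats1 and Lats2, which phosphorylate YAP and TAZ and so keep them out of the nucleus. Unphosphorylated YAP and TAZ enter the nucleus and bind TEAD factors, which carry them to their target genes. The pathway is known for its response to cell contact, adhesion and the stiffness of the substrate, and in the embryonic cortex YAP is best known from radial glia, the progenitors that line the ventricle. RNA levels do not measure phosphorylation or the place of a protein in the cell.

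Summed counts were between 14172205 and 17553098 reads per library, and mitochondrially encoded genes held 5.89% of the reads in NL-SFMA against 2.23% to 2.68% in the other 3 libraries. All 10 cortical neuron markers and all 10 radial glia markers were at 1 FPKM or more in every library. Endothelial and pericyte markers summed to between 1.06 and 1.51 FPKM and fibroblast markers to between 2.03 and 2.96 FPKM. Long gene models were higher on the 3 lettered hydrogels: in NL-SFMA the median difference from SFMA, as log2(FPKM + 1), was 0.92 for 650 genes over 8 kb and -0.89 for 889 genes under 1 kb. Lats1 has the longest model of the 10 genes, at 7087 bases, and Tead2 the shortest, at 2264 bases. Differences with this trend subtracted are therefore given beside the deposited ones.

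The coactivators were lower on all 3 lettered hydrogels than on SFMA. Yap1, the main coactivator of the pathway here, was at 5.72 FPKM on N-SFMA, 7.11 FPKM on L-SFMA and 7.47 FPKM on NL-SFMA, against 10.6 FPKM on SFMA. SFMA was the highest of the 4 libraries and N-SFMA the lowest, with L-SFMA and NL-SFMA between them and apart from each other by no more than counting error. The fold, as a ratio of CPM (each count over its library's summed count) with an exact 95% interval for counting error, was 1.85 lower on N-SFMA (1.64 to 2.08), 1.49 lower on L-SFMA (1.33 to 1.66) and 1.41 lower on NL-SFMA (1.26 to 1.58). Such an interval covers counting error only, because 1 library per hydrogel gives no spread between replicates. The labels name no molecular identifiers and reads need not be separate molecules, so the interval may understate even that error. The log2 differences for Yap1 were -0.78, -0.51 and -0.45 in the same order, and -0.94, -0.80 and -0.74 with the length trend subtracted.

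Wwtr1 was the weaker coactivator gene in every library. It was at 1.24 FPKM on N-SFMA, 0.779 FPKM on L-SFMA and 1.52 FPKM on NL-SFMA, against 2.47 FPKM on SFMA, from between 59 and 201 reads. Its lowest library was L-SFMA, not N-SFMA as for Yap1, and N-SFMA and NL-SFMA were within counting error of each other. Wwtr1 was 1.99-fold lower on N-SFMA (1.54 to 2.58), 3.17-fold lower on L-SFMA (2.36 to 4.31) and 1.62-fold lower on NL-SFMA (1.27 to 2.08). On the log2(FPKM + 1) scale, which understates low genes, these differences were -0.63, -0.96 and -0.46, and -0.78, -1.25 and -0.75 with the length trend subtracted. Yap1 and Wwtr1 together summed to 6.96, 7.89 and 8.99 FPKM on N-SFMA, L-SFMA and NL-SFMA, against 13.0 FPKM on SFMA. Yap1 made up 82.1%, 90.1% and 83.1% of that sum on the lettered hydrogels and 81.1% on SFMA.

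**Figure D1:**
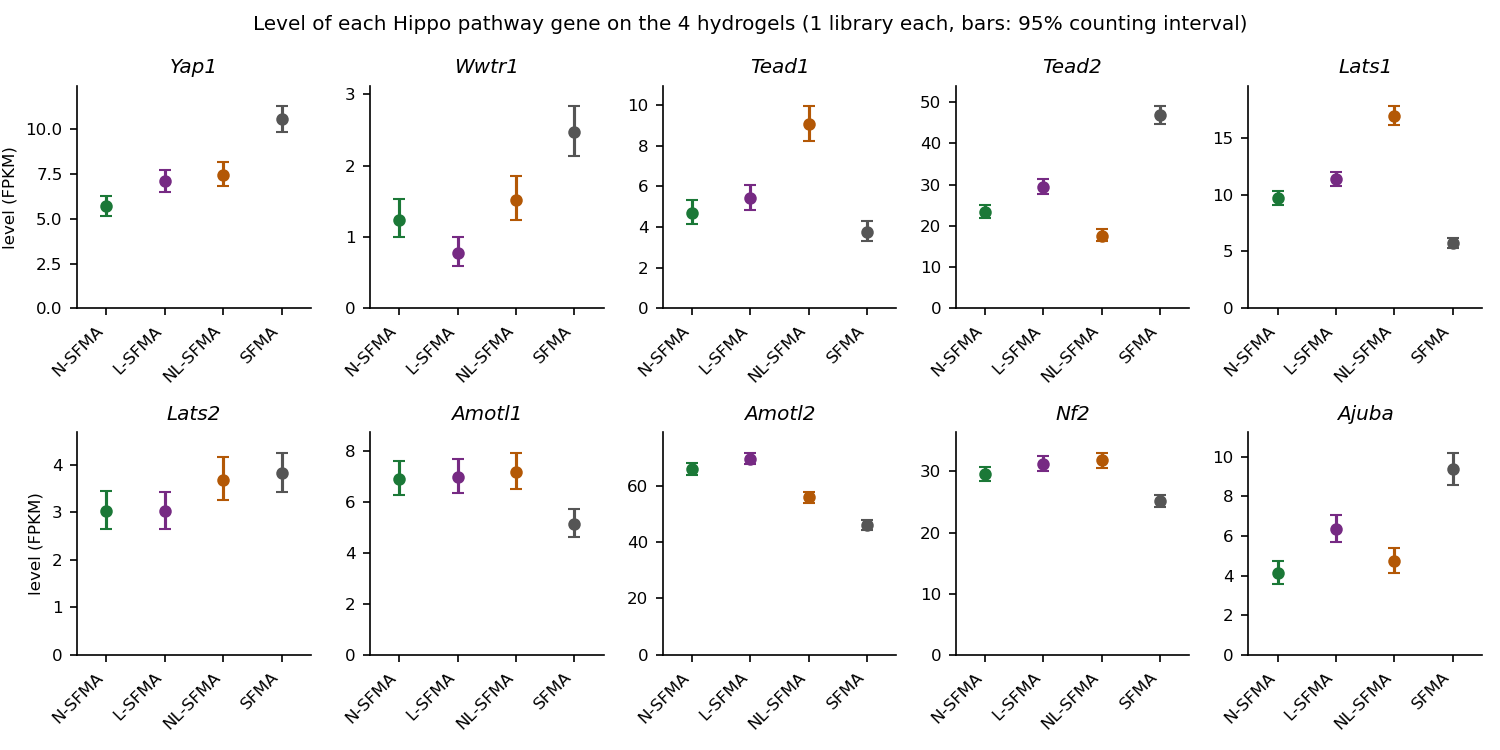
Level in FPKM of each of the 10 genes in the N-SFMA, L-SFMA, NL-SFMA and SFMA libraries, 1 point per library with its exact 95% Poisson counting interval and each vertical axis starting at 0. Yap1, Wwtr1, Tead2 and Ajuba had their highest level on SFMA, and Tead1, Lats1, Amotl1, Amotl2 and Nf2 their lowest.

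The TEAD factors, which bind DNA but need a coactivator to drive transcription, differed from SFMA in opposite directions. Tead2, the TEAD gene with the highest level in these cells, was at 23.4 FPKM on N-SFMA, 29.4 FPKM on L-SFMA and 17.6 FPKM on NL-SFMA, against 46.8 FPKM on SFMA. All neighbours in that order differed by more than counting error. Tead2 was 2.00-fold lower on N-SFMA (1.84 to 2.17), 1.59-fold lower on L-SFMA (1.47 to 1.72) and 2.65-fold lower on NL-SFMA (2.41 to 2.92). Its log2 differences were -0.97, -0.65 and -1.36, and -0.83, -0.54 and -0.95 with the length trend subtracted.

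Tead1 was at 4.70 FPKM on N-SFMA, 5.43 FPKM on L-SFMA and 9.06 FPKM on NL-SFMA, against 3.77 FPKM on SFMA. NL-SFMA stood well above the other libraries, SFMA was the lowest, and N-SFMA and L-SFMA were within counting error of each other. The fold over SFMA was 1.25 on N-SFMA (1.04 to 1.50), 1.44 on L-SFMA (1.21 to 1.72) and 2.40 on NL-SFMA (2.04 to 2.83). Its log2 differences were 0.26, 0.43 and 1.08, and 0.23, 0.31 and 1.07 with the length trend subtracted. Tead3 was at 2.74, 3.00 and 2.29 FPKM on N-SFMA, L-SFMA and NL-SFMA, against 4.88 FPKM on SFMA. Tead4 had 4 reads on N-SFMA, 2 on L-SFMA, and 0 for NL-SFMA and SFMA, where a count of 0 allows up to 0.103 and 0.0834 FPKM.

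The make-up of the TEAD family therefore differed between the hydrogels. The 4 genes summed to 31.0 FPKM on N-SFMA, 37.9 FPKM on L-SFMA and 29.0 FPKM on NL-SFMA, against 55.5 FPKM on SFMA. Tead1 made up 15.2% of that sum on N-SFMA, 14.3% on L-SFMA, and 31.3% for NL-SFMA, against 6.80% on SFMA. Tead2 made up 75.6%, 77.6% and 60.8% on the lettered hydrogels and 84.4% on SFMA. The Tead3 share lay between 7.90% and 8.84% in all 4 libraries.

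**Figure D2:**
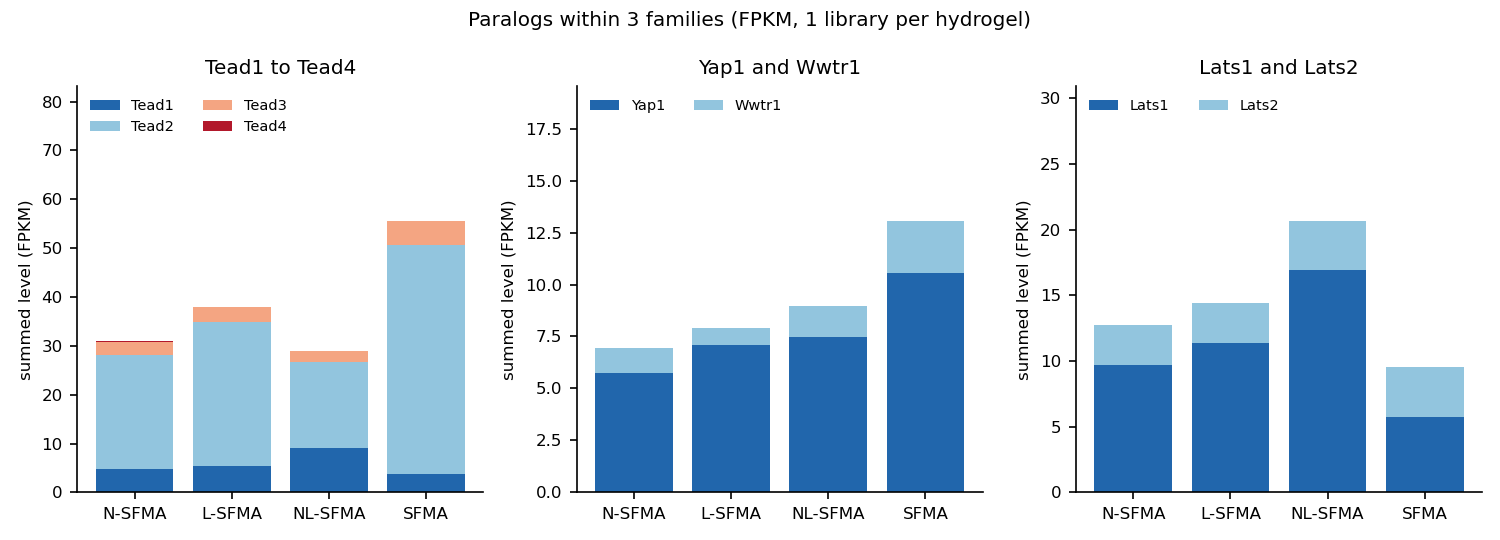
Stacked bars of the FPKM levels of the paralogs of 3 families in the 4 libraries, with no error bars because each hydrogel has 1 library. The TEAD sum and the Yap1 and Wwtr1 sum were highest on SFMA, the Lats1 and Lats2 sum was highest on NL-SFMA, and the Tead1 share was largest on NL-SFMA at 31.3%.

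TEAD factors are known from vertebrate cells to bind the hexamer GGAATG, read as CATTCC on the other strand. The 250 bases before the annotated start were searched for it on both strands in 33469 RefSeq windows of rat genes on build GRCr8, and 12.1% held at least 1 match. Windows were found for 7 of the 10 genes: Yap1, Wwtr1, Lats1, Amotl1, Amotl2, Nf2 and Ajuba. Those of Yap1, Amotl2 and Ajuba held 1 match each. These 3 windows are shown because they held a match. Yap1 and Ajuba were lower and Amotl2 higher on the lettered hydrogels than on SFMA. Among the genes whose windows held no match, Wwtr1 was lower and Lats1 higher. The windows of Ccn1 and Ccn2, textbook targets of YAP and TEAD, are shown for comparison and held 1 and 3 matches, and 0.0807% of all windows held 3 or more. The sequences run 5′ to 3′ on the gene's strand, with the matching hexamers in capitals. They lie at chr8:13451438-13451687 (minus strand) for Yap1, chr8:112182376-112182625 (plus strand) for Amotl2, chr15:32000043-32000292 (minus strand) for Ajuba, chr2:237225690-237225939 (minus strand) for Ccn1 and chr1:22624615-22624864 (minus strand) for Ccn2. A match describes the letters of the window and is not evidence of binding.
Yap1: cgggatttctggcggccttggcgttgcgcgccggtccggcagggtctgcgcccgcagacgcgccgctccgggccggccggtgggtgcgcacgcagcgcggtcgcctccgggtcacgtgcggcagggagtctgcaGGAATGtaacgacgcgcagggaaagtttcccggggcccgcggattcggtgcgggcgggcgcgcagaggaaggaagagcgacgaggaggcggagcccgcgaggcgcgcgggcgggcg
Amotl2: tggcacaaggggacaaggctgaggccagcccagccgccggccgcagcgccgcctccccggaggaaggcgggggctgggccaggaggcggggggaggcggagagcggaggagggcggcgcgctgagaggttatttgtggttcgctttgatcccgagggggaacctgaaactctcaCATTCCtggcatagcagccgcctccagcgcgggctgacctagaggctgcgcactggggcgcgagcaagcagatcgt
Ajuba: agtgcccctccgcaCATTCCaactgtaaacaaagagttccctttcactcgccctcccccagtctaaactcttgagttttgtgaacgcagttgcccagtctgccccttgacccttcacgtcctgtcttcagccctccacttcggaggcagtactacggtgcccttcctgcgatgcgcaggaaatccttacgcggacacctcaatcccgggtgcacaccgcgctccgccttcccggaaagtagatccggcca
Ccn1: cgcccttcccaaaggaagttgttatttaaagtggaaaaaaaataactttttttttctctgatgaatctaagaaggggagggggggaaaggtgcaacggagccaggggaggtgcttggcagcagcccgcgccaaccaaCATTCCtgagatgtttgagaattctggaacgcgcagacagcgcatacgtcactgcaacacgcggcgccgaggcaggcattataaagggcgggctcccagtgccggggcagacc
Ccn2: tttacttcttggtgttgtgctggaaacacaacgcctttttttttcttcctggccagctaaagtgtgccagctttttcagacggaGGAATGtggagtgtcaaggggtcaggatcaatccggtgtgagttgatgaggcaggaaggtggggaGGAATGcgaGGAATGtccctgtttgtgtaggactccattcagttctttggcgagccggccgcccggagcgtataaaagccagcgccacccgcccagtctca
The first base of the match lies 116 bases before the start in Yap1, 76 in Amotl2, 236 in Ajuba and 113 in Ccn1. In Ccn2 the 3 matches begin 166, 101 and 92 bases before the start.

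The LATS kinases, which phosphorylate YAP and TAZ, did not follow each other. Lats1 was at 9.68 FPKM on N-SFMA, 11.4 FPKM on L-SFMA and 16.9 FPKM on NL-SFMA, against 5.73 FPKM on SFMA. NL-SFMA was the highest library, then L-SFMA, N-SFMA and SFMA, and each step was larger than counting error. Lats1 was 1.69-fold higher on N-SFMA (1.54 to 1.86), 1.99-fold higher on L-SFMA (1.81 to 2.18) and 2.95-fold higher on NL-SFMA (2.71 to 3.23). As the longest of the 10 models it was also the most dependent on the length trend: its log2 differences were 0.67, 0.88 and 1.41 as deposited and 0.35, 0.36 and 0.78 with the trend subtracted. Only the NL-SFMA value was then still past 1.5-fold, which is 0.58 on the log2 scale.

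Lats2, a kinase that is itself a YAP target, was at 3.03 FPKM on N-SFMA, 3.02 FPKM on L-SFMA and 3.68 FPKM on NL-SFMA, against 3.82 FPKM on SFMA. N-SFMA and L-SFMA were within counting error of each other, and so were NL-SFMA and SFMA. The fold was 1.26 lower on N-SFMA (1.06 to 1.50) and 1.26 lower on L-SFMA (1.07 to 1.50). After subtraction of the length trend the log2 differences for Lats2 were -0.44, -0.59 and -0.39, against -0.26, -0.26 and -0.04 as deposited. The ratio of Lats1 to Lats2 on the FPKM scale was 3.19 on N-SFMA, 3.77 on L-SFMA, and 4.60 for NL-SFMA, against 1.50 on SFMA.

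Of the regulators, Ajuba was lower on the lettered hydrogels and the other 3 were higher as deposited. Ajuba, a LIM domain protein that binds LATS kinases and restrains them, was at 4.11 FPKM on N-SFMA, 6.33 FPKM on L-SFMA and 4.74 FPKM on NL-SFMA, against 9.36 FPKM on SFMA. N-SFMA and NL-SFMA were the lowest and within counting error of each other. Ajuba was 2.28-fold lower on N-SFMA (1.93 to 2.69), 1.48-fold lower on L-SFMA (1.29 to 1.70) and 1.98-fold lower on NL-SFMA (1.68 to 2.32). Its log2 differences were -1.02, -0.50 and -0.85, and -1.02, -0.58 and -0.79 with the length trend subtracted.

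Amotl2, an angiomotin that holds YAP at junctions and in the cytoplasm, had the highest level of the 10 genes in every library but SFMA, where Tead2 was slightly higher. It was at 65.9 FPKM on N-SFMA, 69.6 FPKM on L-SFMA and 55.8 FPKM on NL-SFMA, against 46.0 FPKM on SFMA. All steps in this order were beyond counting error, and NL-SFMA lay below both hydrogels with 1 letter. Amotl2 was 1.43-fold higher on N-SFMA (1.36 to 1.50), 1.51-fold higher on L-SFMA (1.44 to 1.58) and 1.21-fold higher on NL-SFMA (1.15 to 1.28). Its log2 differences were 0.51, 0.59 and 0.27, and 0.43, 0.41 and 0.17 with the length trend subtracted. Its relative Amotl1 was at 6.904, 6.999 and 7.195 FPKM on N-SFMA, L-SFMA and NL-SFMA, against 5.146 FPKM on SFMA. The 3 lettered hydrogels were within counting error of each other for Amotl1, and their folds over SFMA were 1.34 (1.16 to 1.55), 1.36 (1.18 to 1.57) and 1.40 (1.21 to 1.62). The log2 differences of Amotl1 were 0.36, 0.38 and 0.42, and 0.27, 0.18 and 0.28 with the length trend subtracted.

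Nf2 encodes merlin, a membrane-linked protein that brings LATS kinases to the cell cortex. It was at 29.6 FPKM on N-SFMA, 31.3 FPKM on L-SFMA and 31.8 FPKM on NL-SFMA, against 25.1 FPKM on SFMA. L-SFMA and NL-SFMA were within counting error of each other and SFMA was the lowest. Its folds over SFMA were 1.18 on N-SFMA (1.11 to 1.25), 1.25 on L-SFMA (1.18 to 1.32) and 1.27 on NL-SFMA (1.20 to 1.34). Subtracting the length trend removed the rise, and the log2 differences were -0.00028, -0.08 and -0.12 in place of 0.23, 0.31 and 0.33.

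Counted together at 1.5-fold on the log2(FPKM + 1) scale, 1 of the 10 genes was higher on N-SFMA (Lats1) and 4 were lower (Yap1, Wwtr1, Tead2 and Ajuba). Over all genes tested, 7.24% were that much higher and 10.7% that much lower. On L-SFMA 2 genes were higher (Lats1 and Amotl2) and 2 lower (Wwtr1 and Tead2), against 14.8% and 11.1% of all genes. On NL-SFMA 2 genes were higher (Lats1 and Tead1) and 2 lower (Tead2 and Ajuba), against 21.6% and 29.3% of all genes, so the share higher on NL-SFMA was near the background and the share lower was under it. Amotl2 on L-SFMA lay at the threshold, at 0.5851, and it was below it with TMM scaling. At 2-fold the counts were 0 higher and 1 lower (Ajuba) on N-SFMA, 0 and 0 on L-SFMA, and 2 higher (Lats1 and Tead1) and 1 lower (Tead2) on NL-SFMA. The shares of all genes at 2-fold were 0.855% and 2.65%, 3.32% and 3.04%, and 10.1% and 15.1%. The medians of the 10 genes were -0.02 on N-SFMA, 0.02 on L-SFMA, and 0.12 for NL-SFMA, beside -0.02, 0.05 and -0.10 over all genes tested.

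With the length trend subtracted the counts became 0 higher and 4 lower on N-SFMA, 0 higher and 3 lower on L-SFMA, and 2 higher and 4 lower on NL-SFMA. The background was then 5.79% higher and 6.78% lower on N-SFMA, 8.12% and 7.46% on L-SFMA, and 19.1% and 18.9% on NL-SFMA. Yap1 and Wwtr1 were past 1.5-fold lower on all 3 hydrogels in this form. The counting interval excluded a ratio of 1 for all 10 genes on both N-SFMA and L-SFMA, with 5 higher and 5 lower, and for 9 genes on NL-SFMA. At this depth it did so for most genes: 32.4% were higher and 35.8% lower on N-SFMA, 40.6% and 32.3% on L-SFMA, and 37.1% and 45.4% on NL-SFMA.

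**Figure D3:**
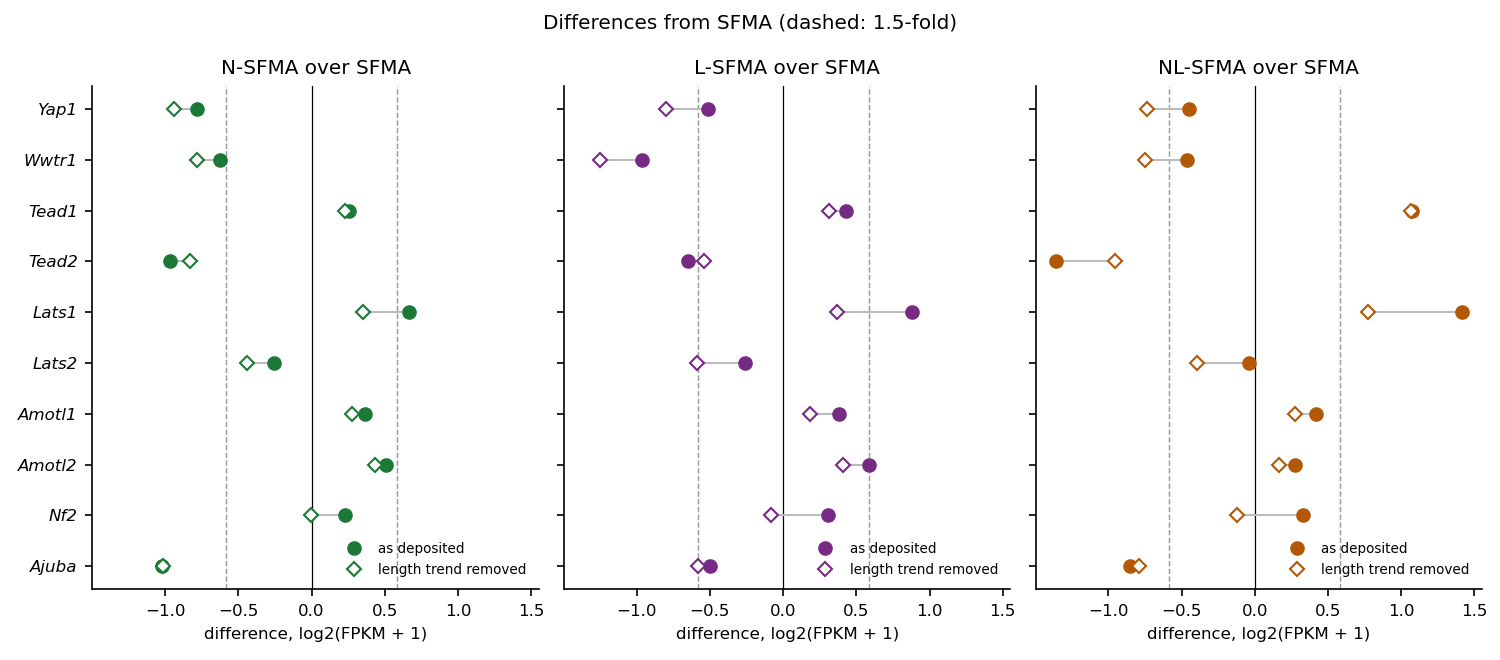
Difference from SFMA in log2(FPKM + 1) for each gene on N-SFMA, L-SFMA and NL-SFMA, as deposited (filled) and with the length trend subtracted (open), with dashed lines at 1.5-fold. Yap1 and Wwtr1 lie further below 0 in the open form, at -0.94 and -0.78 on N-SFMA, while Lats1 lies nearer to 0 and Nf2 lies at it or below.

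**Figure D4:**
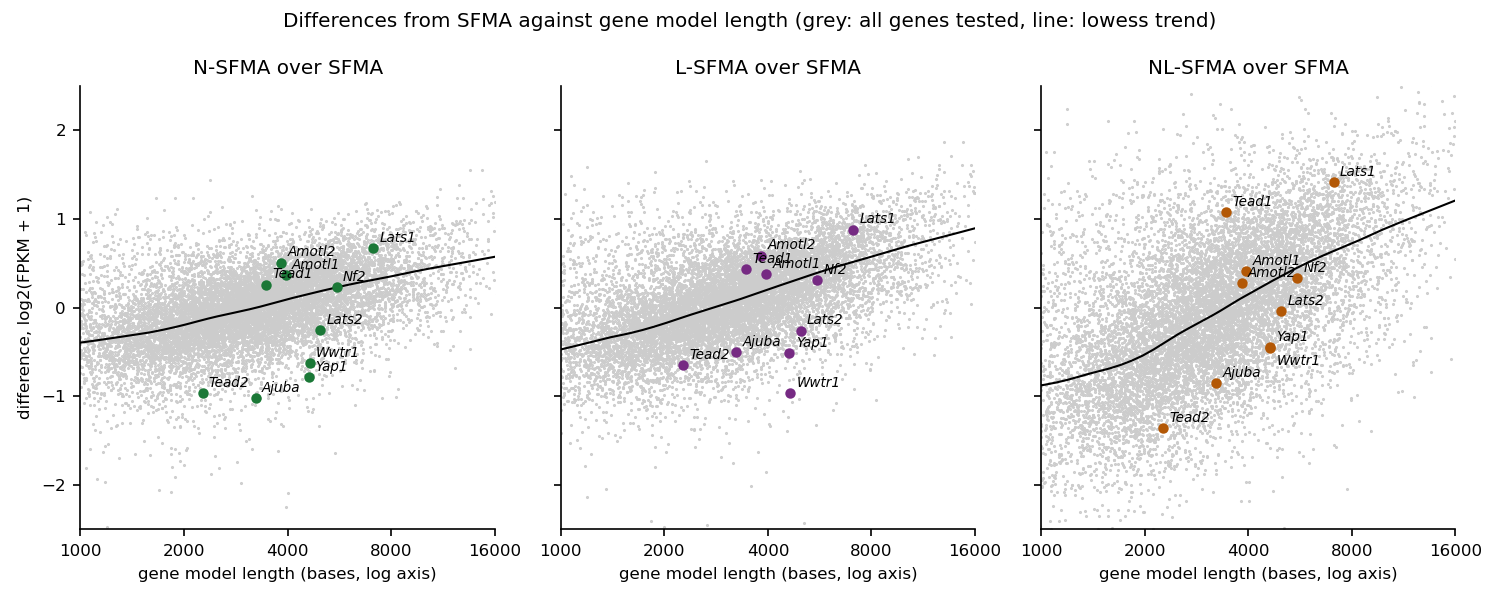
Difference from SFMA in log2(FPKM + 1) against gene model length on a log axis, with all genes tested in grey within the axis limits, their lowess trend as a line and the 10 genes in colour. Lats1 at 7087 bases lies above the rising trend in each comparison, and Yap1 and Wwtr1, at 4622 and 4638 bases, lie below it.

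Between the lettered hydrogels, Tead1 and Lats1 were highest on NL-SFMA. On NL-SFMA Tead1 was 1.93-fold higher than on N-SFMA (1.65 to 2.26) and 1.67-fold higher than on L-SFMA (1.44 to 1.93). Lats1 was 1.75-fold higher on NL-SFMA than on N-SFMA (1.62 to 1.89) and 1.49-fold higher than on L-SFMA (1.38 to 1.60). Past 1.5-fold as log2(FPKM + 1), NL-SFMA had 2 genes higher and 0 lower than N-SFMA, where 12.5% and 18.0% of all genes were called. Against L-SFMA it had 1 higher (Tead1) and 1 lower (Tead2), where 7.23% and 20.9% were called. After subtraction of the length trend, the Lats1 difference between NL-SFMA and N-SFMA was 0.42 in place of 0.75 and the Tead2 difference between NL-SFMA and L-SFMA was -0.44 in place of -0.71, both then under 1.5-fold. Those of Tead1 stayed past it, at 0.82 over N-SFMA and 0.74 over L-SFMA. Between L-SFMA and N-SFMA none of the 10 genes was past 1.5-fold, against a background of 3.0% higher and 1.09% lower, and the largest ratios on the CPM scale were those of Ajuba, 1.54-fold higher on L-SFMA (1.29 to 1.84), and Wwtr1, 1.60-fold lower on L-SFMA (1.14 to 2.26). The comparisons share libraries, so they are not independent of each other.

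Most markers of radial glia were lower beside Yap1, Wwtr1, Tead2 and Ajuba. The 10 radial glia markers summed to 700.1 FPKM on N-SFMA, 691.3 FPKM on L-SFMA and 773.5 FPKM on NL-SFMA, against 1554 FPKM on SFMA. Of these 10, 7, 4 and 7 were past 1.5-fold lower on N-SFMA, L-SFMA and NL-SFMA, and 0, 1 and 0 higher, where 10.7%, 11.1% and 29.3% of all genes were lower. After subtraction of the length trend 4, 3 and 5 of them were lower. Vim held most of each radial glia sum, at 1088 FPKM on SFMA, where Fabp7 was at 263.8 FPKM. On L-SFMA, Hes5 was at 18.0 FPKM against 10.5 on SFMA, and Nes at 18.3 against 17.4. Prom1 was at 5.96 FPKM on NL-SFMA against 5.92 on SFMA. The 6 astrocyte markers summed to 63.3, 70.3 and 42.5 FPKM on the lettered hydrogels, against 106 FPKM on SFMA. The 6 microglia markers found summed to 7.43, 14.6 and 6.56 FPKM, against 20.7 FPKM on SFMA, and the 5 of the oligodendrocyte lineage to 9.75, 11.6 and 8.18 FPKM, against 16.01 FPKM. The 4 markers of dividing cells went in different directions: on NL-SFMA, Mki67 was at 18.3 FPKM against 5.64 on SFMA and Top2a at 48.8 against 27.5, while Cdk1 was at 21.5 against 67.7 and Ccnb1 at 22.2 against 30.2. The 10 cortical neuron markers summed to 3419, 2861 and 2627 FPKM on the lettered hydrogels, against 2463 FPKM on SFMA. On N-SFMA, L-SFMA and NL-SFMA, 4, 6 and 5 of them were past 1.5-fold higher and 0 lower. The shares of all genes that much higher were 7.24%, 14.8% and 21.6%. With the length trend subtracted, 4, 4 and 5 were higher. Tubb3 held most of each sum, and on NL-SFMA it was at 1659 FPKM against 1882 on SFMA. Neurod2, Rbfox3 and Slc17a7 were also lower there, and the other neuron markers were higher. The part of cell composition in the levels of the Hippo genes was not tested, and in bulk RNA fewer cells of a type and less RNA per cell cannot be told apart.

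YAP and TEAD target genes were taken from a signature of 22 genes, of which 15 had a level of at least 1 FPKM and 2, Amotl2 and Lats2, are among the 10 genes above. Past 1.5-fold, 0 were higher and 3 lower on N-SFMA, 3 higher and 2 lower on L-SFMA, and 2 higher and 5 lower on NL-SFMA. Over all genes the shares higher and lower were 7.24% and 10.7%, 14.8% and 11.1%, and 21.6% and 29.3%. As deposited, the 2 of 15 lower on L-SFMA and the 5 of 15 lower on NL-SFMA were therefore near the background. The medians of the targets were -0.22, -0.19 and -0.22, beside -0.02, 0.05 and -0.10 over all genes tested. With the length trend subtracted, 0 were higher and 3 lower on N-SFMA, 1 higher and 3 lower on L-SFMA, and 2 higher and 5 lower on NL-SFMA. The shares of all genes were then 5.79% and 6.78%, 8.12% and 7.46%, and 19.1% and 18.9%. In this form the share of targets lower was above that of all genes on each lettered hydrogel. The target medians became -0.17, -0.23 and -0.30. Ccn1, a matricellular protein gene induced by YAP, was at 3.52 FPKM on N-SFMA, 3.20 FPKM on L-SFMA and 4.53 FPKM on NL-SFMA, against 7.91 FPKM on SFMA. It was lower on all 3, by 2.25-fold (1.81 to 2.82), 2.47-fold (1.98 to 3.11) and 1.75-fold (1.42 to 2.16). After subtraction of the trend the Ccn1 difference on NL-SFMA was -0.20 on the log2 scale in place of -0.69.

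Ccn2, its relative, was at 1.27 FPKM on N-SFMA, 3.27 FPKM on L-SFMA and 3.30 FPKM on NL-SFMA, against 4.01 FPKM on SFMA. N-SFMA stood apart as the lowest, 3.16-fold below SFMA (2.32 to 4.35), and the other lettered hydrogels were within counting error of SFMA. Ankrd1, another textbook target, was near or at 0, with 0 reads on N-SFMA and L-SFMA, 1 on NL-SFMA and 2 on SFMA. F3, the coagulation tissue factor gene, was named after its values were seen. It was at 1.18, 1.35 and 1.11 FPKM on N-SFMA, L-SFMA and NL-SFMA, against 4.17 FPKM on SFMA. Crim1, also named after its values were seen, went in the other direction. It was at 2.78, 4.44 and 4.26 FPKM in the same order, against 1.69 FPKM on SFMA. Tgfb2, a growth factor gene, was also higher, at 9.21 FPKM on NL-SFMA against 3.49 on SFMA. Its log2 difference was 1.19, and 0.75 with the length trend subtracted. The stress gene Gadd45a (-1.26), the Dachsous pathway gene Fjx1 (-0.97) and the kinase gene Nuak2 (-0.78) were lower on NL-SFMA. These 3 differences were -0.79, -0.48 and -0.62 after subtraction of the length trend, and that of Fjx1 was then under 1.5-fold. The RhoA exchange factor gene Arhgef17 was higher on L-SFMA (0.71, and 0.12 with the length trend subtracted).

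Other genes of the pathway were taken from a list of 55, of which 53 were found and 49 had a level of at least 1 FPKM. Past 1.5-fold, 5 were higher and 4 lower on N-SFMA, 11 higher and 0 lower on L-SFMA, and 13 higher and 8 lower on NL-SFMA, to be read against the same shares of all genes. The 4 of 49 lower on N-SFMA and the 13 of 49 higher on NL-SFMA were near them. Their medians were 0.10, 0.23 and -0.03. After subtraction of the length trend the counts were 1 higher and 4 lower, 7 higher and 2 lower, and 7 higher and 11 lower, against shares of all genes of 5.79% and 6.78%, 8.12% and 7.46%, and 19.1% and 18.9%. Among the upstream cadherins, Fat4 was higher by 1.00, 1.82 and 2.12 on the log2(FPKM + 1) scale on N-SFMA, L-SFMA and NL-SFMA, and its ligand Dchs1 by 0.91, 1.52 and 1.38. Both have long models, and the same differences with the length trend subtracted were 0.42, 0.91 and 0.89 for Fat4 and 0.47, 0.81 and 0.46 for Dchs1.

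Among the kinases, Taok1, which activates Stk3 and Stk4, was at 7.97 FPKM on N-SFMA, 13.6 FPKM on L-SFMA and 19.9 FPKM on NL-SFMA, against 4.73 FPKM on SFMA. The fold over SFMA on NL-SFMA was 4.20 (3.71 to 4.77), and the log2 difference of 1.86 was 1.74 with the length trend subtracted. Stk4 was at 10.1, 9.83 and 12.9 FPKM on N-SFMA, L-SFMA and NL-SFMA, against 6.83 FPKM on SFMA, with log2 differences of 0.50, 0.47 and 0.83 that were 0.19, -0.05 and 0.19 with the length trend subtracted. Stk3 was at 2.35, 2.35 and 3.76 FPKM, against 3.24 FPKM on SFMA. The MAP4K family kinases Tnik (0.83 on N-SFMA and 1.11 on L-SFMA) and Map4k5 (0.68 on N-SFMA) were also higher. After subtraction of the length trend these were 0.63 and 0.75 for Tnik and 0.56 for Map4k5, the last under 1.5-fold. In the other comparisons both were also higher as deposited. Tnik was at 40.2 FPKM on NL-SFMA, against 16.9 FPKM on SFMA. Map4k5 was at 14.7 FPKM on L-SFMA and 17.7 FPKM on NL-SFMA, against 7.52 FPKM on SFMA. Mob1b, which encodes a LATS coactivator, was at 6.01, 8.37 and 15.0 FPKM on N-SFMA, L-SFMA and NL-SFMA, against 4.07 FPKM on SFMA. Its fold on NL-SFMA was 3.68 (3.22 to 4.22). Wtip, a relative of Ajuba that likewise binds LATS kinases, was at 3.93 FPKM on N-SFMA, 8.22 FPKM on L-SFMA and 2.51 FPKM on NL-SFMA, against 9.62 FPKM on SFMA. It was lower by 2.45-fold on N-SFMA (1.98 to 3.04) and by 3.83-fold on NL-SFMA (2.96 to 5.02), and on L-SFMA the counting interval of the ratio included 1. The log2 differences of Wtip on N-SFMA and NL-SFMA were -1.11 and -1.60, and -0.91 and -1.07 with the length trend subtracted.

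**Figure D5:**
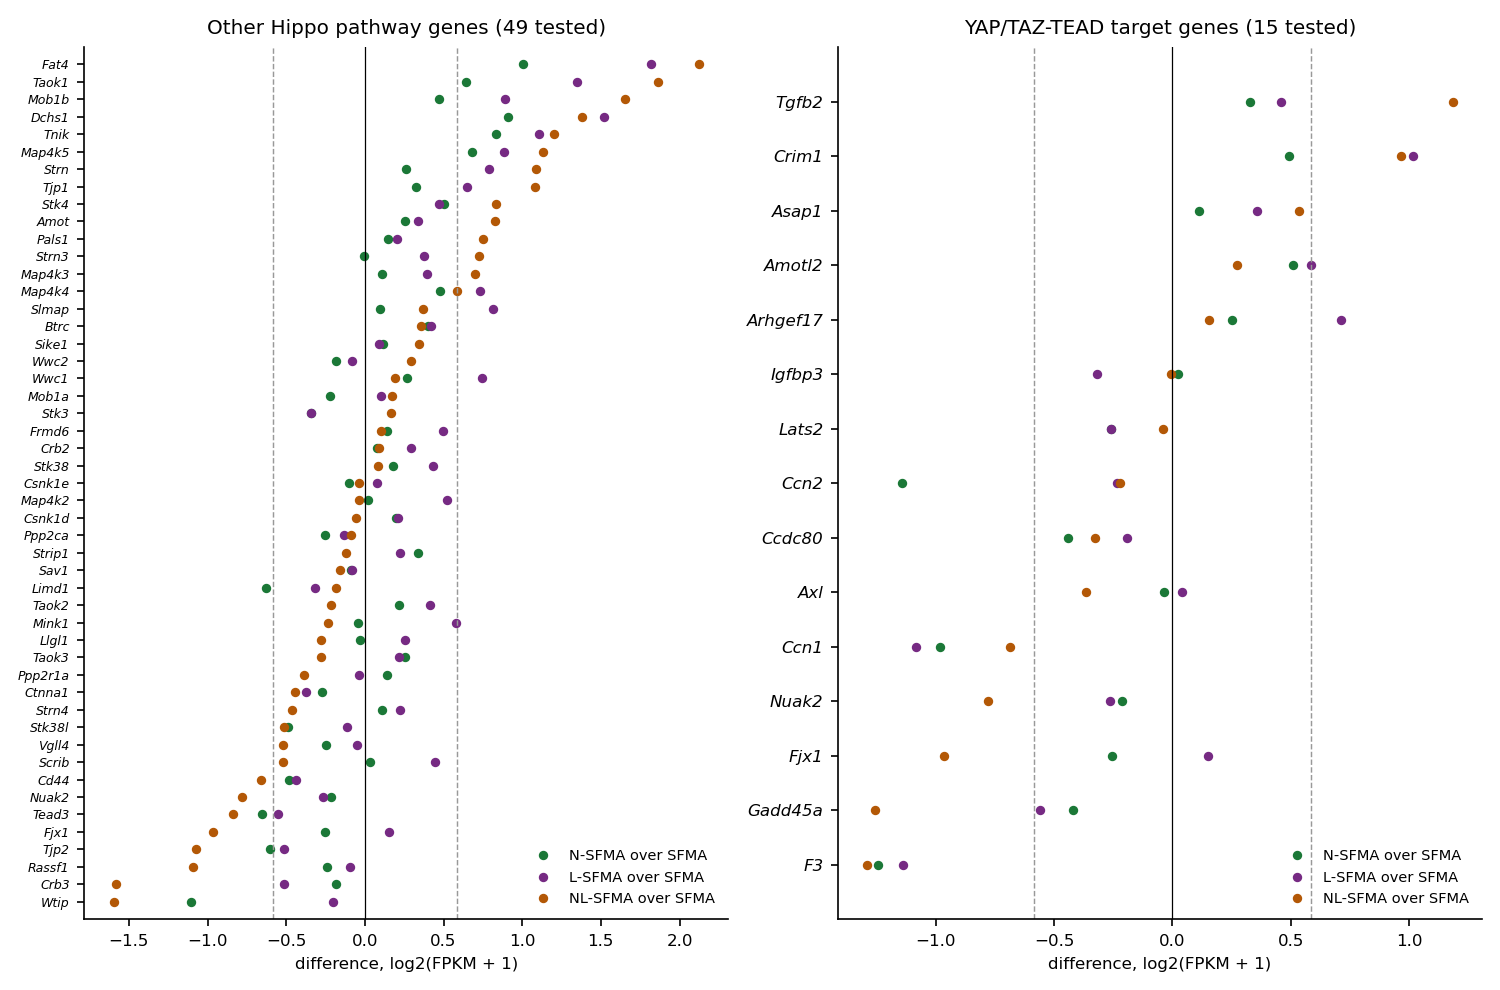
Difference from SFMA in log2(FPKM + 1) for 49 other Hippo pathway genes (left) and 15 YAP/TAZ-TEAD target genes (right), 1 point per hydrogel, ordered by the NL-SFMA value, with dashed lines at 1.5-fold. Fat4, Taok1 and Mob1b lie furthest to the right on NL-SFMA at 2.12, 1.86 and 1.66, and Wtip furthest to the left at -1.60.

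The genes with the pattern most like a coactivator or TEAD gene were found by the smallest distance between their 3 differences from SFMA in log2(FPKM + 1), among genes with at least 5 FPKM in 1 library. With 4 libraries such likeness is a description only. Tead2 was nearest to the cell cycle kinase gene Cdk2 (distance 0.0276), then to the collagen chaperone gene Serpinh1 (0.0715) and the centromere gene Mis18a (0.0729). Tead1 was nearest to Arl5a (0.0538), Strbp (0.0587) and the transcription factor gene Nfatc3 (0.0589). Yap1 was nearest to AC094643.2 (0.0715), the sorting nexin gene Snx5 (0.0716) and Ginm1 (0.0872). Wwtr1 was nearest to the ribosomal protein pseudogene Rpl9-ps30 (0.0794), and LOC100365839 (0.175) was also among its 3 nearest, both at far higher levels than its own.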

How the data were processed

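Poly(A) RNA of 4 libraries, 1 per hydrogel, was measured with a NEBNext Ultra RNA kit, per the labels' protocols. The deposited count column holds raw read counts per gene, made with HISAT2 (no version given) and HTSeq 0.13.5 per the submitters' processing notes, which name a rat and a human build without a role. The deposited FPKM column is the authors' count divided by gene model length and by the summed count; lengths recovered from both were whole to within 1e-06 bases. No source used here gives the strand setting, so overlapping antisense reads cannot be told apart.

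Each difference is log2(FPKM + 1) in the first library minus that in the second, a pseudocount of 1, counted at 1.5-fold among 12394 genes with at least 1 FPKM in at least 1 library. Folds are ratios of CPM with exact (Clopper-Pearson) 95% intervals conditional on the sum of both counts. A count of 0 allows up to 3 counts. The length trend is a lowess curve (span 0.3, statsmodels 0.14.6) of the difference on log2 model length, tested on simulated data. Other settings were a pseudocount of 0.1, TMM factors (edgeR 4.0.16), median-of-ratios factors, exclusion of mitochondrially encoded genes, and no filter. edgeR was used for these factors only, because 1 library per hydrogel gives no spread between replicates.

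Named were the 10 genes, up to 5 genes with the largest difference per list and comparison (at least 5 FPKM in the higher library) and a few textbook genes. F3, Crim1 and the genes in the closing paragraph were chosen after their values were seen. Members and lists were chosen with earlier results of these data known. Promoter windows are from RefSeq (GRCr8). One gene that the rule names for its likeness to Wwtr1 is not reported here.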

Additional observations from a re-analysis of the deposited data

Results flagged for a closer look

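If each letter means the same modification wherever it occurs, its difference can be read with and without the other letter. Each such difference rests on 1 pair of libraries, and the contrast between them was not tested. In 4 of the 10 genes both counting intervals excluded a ratio of 1 and the ratios lay on opposite sides of it for at least 1 letter, as in 18.2% of all 12394 genes tested. Yap1 was 1.30-fold higher on NL-SFMA than on N-SFMA (1.14 to 1.49) but lower on L-SFMA than on SFMA, and the log2 differences were 0.84 apart. Wwtr1 was 1.95-fold higher on NL-SFMA than on L-SFMA (1.40 to 2.74) but lower on N-SFMA than on SFMA, 1.13 apart. Lats2 was 1.22-fold higher on NL-SFMA than on L-SFMA (1.02 to 1.46) and 1.21-fold higher than on N-SFMA (1.01 to 1.46), but lower on each of these than on SFMA, 0.48 apart. Amotl2 was 1.25-fold lower on NL-SFMA than on L-SFMA (1.19 to 1.30) and 1.18-fold lower than on N-SFMA (1.12 to 1.24), but higher on each of these than on SFMA, with a contrast of -0.82. With the length trend subtracted, the log2 difference of NL-SFMA from N-SFMA was 0.19 for Yap1, 0.04 for Lats2 and -0.28 for Amotl2. As deposited these were 0.33, 0.22 and -0.23, so little of the Lats2 difference between NL-SFMA and N-SFMA remained. From L-SFMA the difference was then 0.49 for Wwtr1, 0.18 for Lats2 and -0.26 for Amotl2, in place of 0.50, 0.22 and -0.31.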

How the results depend on the processing

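Of the 10 genes, 8 kept the sign of their difference from SFMA in the 3 comparisons and under 6 other settings. The exceptions were Nf2, which fell to about 0 or below it in all 3 comparisons with the length trend subtracted, and Lats2 on NL-SFMA, which lay between -0.39 and 0.04. A changed pseudocount or a dropped filter cannot alter the sign of a gene's difference. Only the scaling settings and the length trend could have altered a sign. With the length trend subtracted, the count of genes past 1.5-fold higher was 0 in place of 1 on N-SFMA and 0 in place of 2 on L-SFMA, and the count lower was 4 in place of 2 on NL-SFMA. The medians were then -0.22 on N-SFMA, -0.31 on L-SFMA, and -0.26 for NL-SFMA, in place of -0.02, 0.02 and 0.12. On L-SFMA the count higher was 1 with TMM scaling, with median-of-ratios scaling and without mitochondrially encoded genes. The median over all genes on NL-SFMA, -0.10 as deposited, was -0.02 with median-of-ratios scaling. Of 252 other values, for single genes and for the counts of the gene lists, 222 stayed within counting error (genes) or 1.5 times (counts), and 30 moved further. The 222 include the single-gene differences without the filter, which could not change. No paired analysis was possible because each hydrogel has 1 library. For the same reason no library could be left out. Depth limits Wwtr1 most, at 59 reads on L-SFMA, and leaves Tead4 and Ankrd1 without a usable comparison.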

Other observations

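Other paralog pairs of the pathway differed from each other on NL-SFMA, besides Tead1 with Tead2. These pairs were picked after their values were seen. Among the kinases of the TAO family, Taok1 was higher on NL-SFMA (log2 difference 1.86) and Taok3 lower (-0.28). Taok3 was at 13.9, 13.5 and 9.28 FPKM on N-SFMA, L-SFMA and NL-SFMA, against 11.5 FPKM on SFMA. Among the LATS coactivators, Mob1b differed by 1.66 and Mob1a by 0.17, with Mob1a at 9.12, 11.7 and 12.3 FPKM on the lettered hydrogels against 10.8 FPKM on SFMA. With the length trend subtracted the NL-SFMA differences were 1.74 for Taok1, -0.07 for Taok3, 1.49 for Mob1b and -0.08 for Mob1a.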
